A study of Mus musculus with 6 samples.

Results

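The Polycomb complex subunits described here are 10 genes, taken by name with earlier results of these data known. The genes are Ezh2, Suz12, Eed, Jarid2, Mtf2, Rnf2, Ring1, Kdm2b, Pcgf6 and Bmi1. They account for 94 of the 68473 transcripts in the deposited table. The measurements came from mNET-seq, in which the short RNA held inside RNA polymerase II is recovered by immunoprecipitation after nuclease digestion of chromatin and is then sequenced. There were 6 libraries from embryonic stem cells of C57BL/6 mice, with 2 from a first Mettl3 knockout (KO1), 2 from a second Mettl3 knockout (KO2) and 2 from control cells. All 3 groups were grown in medium with serum, LIF, the GSK3 inhibitor CHIR99021 and the MEK inhibitor PD0325901. Mettl3 encodes the enzyme that places the m6A mark on RNA. The labels do not say how each knockout was made, whether each line is 1 clone or whether replicates came from separate cultures. The p-values therefore refer only to the spread between libraries, which may be technical.

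Polycomb proteins keep developmental genes silent and act through a pair of enzyme complexes. Polycomb repressive complex 2 (PRC2) methylates lysine 27 of histone H3, and Polycomb repressive complex 1 (PRC1) attaches ubiquitin to lysine 119 of histone H2A. In embryonic stem cells both complexes sit at CpG islands, many of them at bivalent promoters of lineage genes that carry repressive and active marks together. Their subunits are themselves transcribed by RNA polymerase II, and it is polymerase on the subunit genes that was measured here, not the Polycomb proteins or their marks.

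The deposited value is an escaping index, read here as a log2 ratio of polymerase signal downstream to signal at the start of a transcript. The sources used here do not give its windows. On this reading a higher value means more signal downstream for each unit at the start. The index is neither an RNA level nor an amount of polymerase. It is not scaled to length, so it is compared below between groups within a gene and never between genes. An outer-start transcript begins within 500 bases of the most 5' annotated start of its gene, and an internal-start transcript begins further inside. Of the members' 94 transcripts, 34 were outer-start and 60 internal-start. Outer-start transcripts with identical values were taken once, which left 32.

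Over all transcripts the median log2 index was 3.02 and 3.01 in the KO1 libraries and 2.90 and 2.91 in the KO2 libraries, against 3.23 and 3.24 in the control libraries. The knockout medians were all lower than both control medians. Replicates of a group correlated at r = 0.978 to 0.979 across transcripts, which are not independent. The outer-start index of Mettl3, the targeted gene, was 0.93 and 0.92 in KO1, 0.80 and 0.88 in KO2, and 1.29 and 1.20 in control, and being a ratio it does not check the deletion. The same holds for cell type markers, which are only listed or not: 5 of 5 naive pluripotency genes and 2 of 4 fibroblast genes are in the table. The read depth is unknown, so no counting interval is given.

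The outer-start index of 3 subunit genes was lower than in control in the average of both knockouts: Rnf2, Ezh2 and Pcgf6. These encode the main E3 ubiquitin ligase of PRC1, the main H3K27 methyltransferase of PRC2 and the RING finger protein that defines a variant PRC1. Each was 38.4% to 44.4% lower on the linear scale of the ratio. Of the 9 subunit genes with an outer-start value, 3 were called lower at an adjusted p under 0.05 and none higher in that contrast (limma, Benjamini-Hochberg over all 15956 genes), where 14.3% of all genes were called lower and 0.445% higher. In KO2 alone 2 of 9 were called lower, Rnf2 and Pcgf6, and none higher, where 17.3% of all genes were called lower and 0.439% higher. In KO1 alone none was, nor was any gene (0.0% of all genes, smallest adjusted p 0.0620), and at an unadjusted p under 0.05 the count in KO1 was 5 of 9 members, all lower, where 24.4% of all genes were. Leaving out any 1 of the 6 libraries left no member and no other gene called in any of these contrasts.

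Most genes of the table had a lower outer-start index in the knockouts, and the members stood within that shift. The median change of the 9 members was -0.49 in KO1, where that of all 15956 genes was -0.30. In KO2 it was -0.42, where that of all genes was -0.48. For both knockouts averaged it was -0.41 over the members and -0.38 over all genes. All 4 knockout libraries lay below both control libraries for 6 of 9 members, and for 39.5% of all genes. When each library was centred on its own median, none of the 9 members was called. The share of all genes called after centring is not given here, so that count does not set the members against other genes. In KO2 Suz12, Eed, Mtf2 and Bmi1 then turned from below to above 0. Jarid2 and Ring1 lay above 0 in KO2 already before centring, at 0.13 and 0.06. All contrasts against control share the same 2 control libraries.

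**Figure D1:**
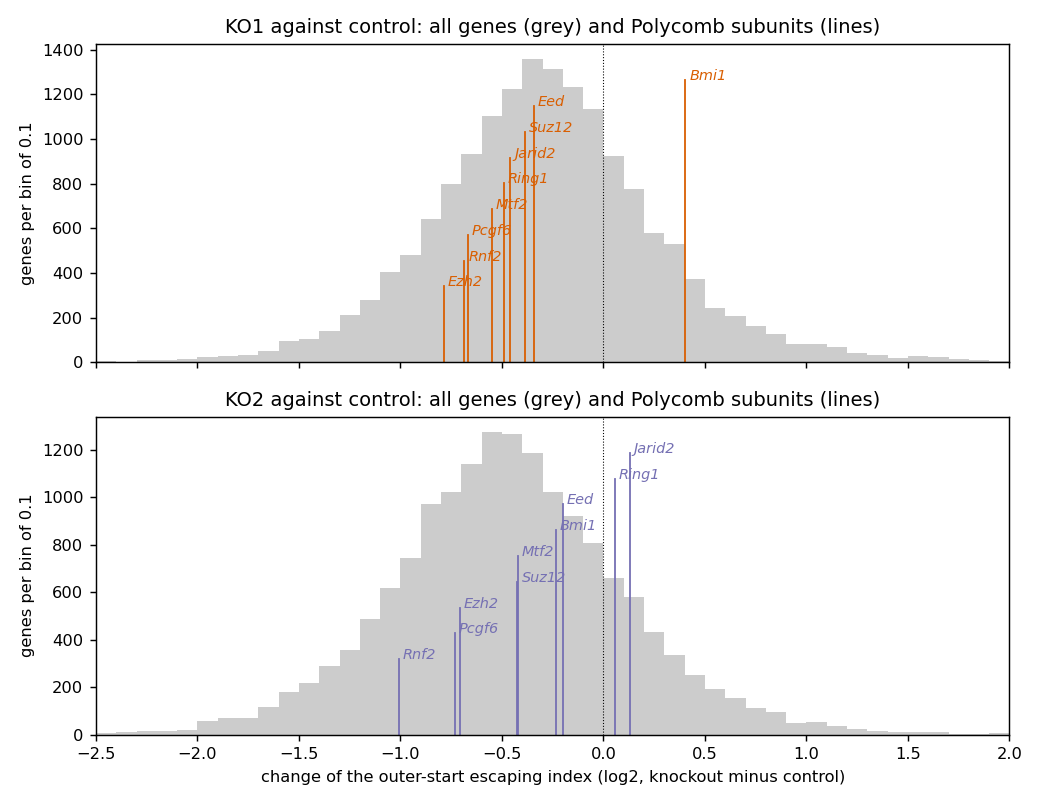
Change of the outer-start index (log2, knockout minus control) for all 15956 genes as grey bars of width 0.1, with a line for each of 9 Polycomb subunit genes, for KO1 above and KO2 below; line heights are set only to keep the names apart. Both grey distributions peak below 0, and the subunit genes spread across them, with Ezh2 lowest at -0.79 in KO1 and Rnf2 lowest at -1.01 in KO2.

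Ezh2, the H3K27 methyltransferase that most PRC2 in stem cells carries, spans chr6:47530139-47595341 on the minus strand (mm10). The outer-start index of Ezh2 was 4.82 and 5.06 in KO1 and 4.96 and 5.09 in KO2, against 5.87 and 5.59 in control. All 4 knockout libraries lay below both controls, and the knockouts overlapped each other. The change was -0.79 ± 0.18 in KO1 (SE, adjusted p = 0.0780, limma), -0.71 ± 0.18 in KO2 (adjusted p = 0.0536) and -0.75 ± 0.16 in the average (adjusted p = 0.0405), so only the average was called. Of all genes, 16.5% had a lower change in KO1 and 32.7% in KO2. A pair of its 3 distinct outer-start transcripts, Ezh2-215 and Ezh2-201, which begin 283 and 311 bases inside the outermost start, was called in KO2 and in the average. The outermost, Ezh2-205, was not: its change was -1.13 in KO1 and -0.56 in KO2, with adjusted p values of 0.118 and 0.285. With all transcripts of Ezh2 averaged, internal starts included, the average change was -0.10 and was not called, and over the alternatives in scaling, value and fit its adjusted p ran from 0.0280 to 0.630.

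Suz12, the zinc finger subunit on which PRC2 assembles, spans chr11:79993106-80034123 on the plus strand. In KO1 libraries its outer-start index was 6.79 and 7.17, and in KO2 libraries 6.88 and 7.02, against 7.33 and 7.41 in control. Every knockout library was below both controls, though the KO1 replicates were far apart. The change was -0.39 ± 0.20 in KO1 and -0.42 ± 0.20 in KO2 (SE, adjusted p = 0.276 and 0.183, limma), and neither was called.

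Eed, the subunit that binds trimethylated H3K27 and stimulates the enzyme, spans chr7:89954654-89980983 on the minus strand. Eed had an outer-start index of 3.13 and 3.02 in KO1 and 3.22 and 3.21 in KO2, against 3.40 and 3.43 in control. The groups did not overlap, with KO1 lowest and control highest. The change was -0.34 ± 0.15 in KO1 and -0.20 ± 0.15 in KO2 (SE, adjusted p = 0.217 and 0.378, limma), neither called. The first 261 bases of Eed also lie in E230029C05Rik, a noncoding gene on the opposite strand, and the sources used here do not say whether counting used strand.

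Mtf2, an accessory subunit that binds unmethylated CpG-rich DNA and helps bring PRC2 to CpG islands, spans chr5:108065674-108109004 on the plus strand. The Mtf2 index at outer starts was 5.44 and 5.50 in KO1 and 5.58 and 5.61 in KO2, against 5.92 and 6.12 in control. The groups did not overlap, and KO1 was lowest. The change was -0.55 ± 0.16 in KO1, -0.42 ± 0.16 in KO2 and, over both knockouts, -0.49 ± 0.14 (SE, adjusted p = 0.105, 0.110 and 0.0646, limma), none called. Its 12 outer-start transcripts begin within 83 bases of each other, so they are not independent. Their changes ran from -0.67 to -0.37 in KO1 and from -0.54 to -0.30 in KO2.

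Jarid2, an accessory subunit that binds nucleosomes and recruits PRC2 in embryonic stem cells, had knockouts on different sides of control without overlap. The changes of Ring1 and Bmi1 also differed in sign between the knockouts, but their groups overlapped. Jarid2 spans chr13:44729474-44921643 on the plus strand. Its outer-start index was 4.56 and 4.54 in KO1 and 5.17 and 5.11 in KO2, against 5.01 and 5.01 in control. Both KO1 libraries were below both controls and both KO2 libraries above them. The change was -0.46 ± 0.14 in KO1 and 0.13 ± 0.14 in KO2 (SE, adjusted p = 0.121 and 0.531, limma), neither called, and the KO2 change was -0.13 with an outer-start limit of 2000 bases. Jarid2 was the only one of the 9 members above both controls in KO2, where 6.79% of all genes were. The difference between knockouts, KO1 minus KO2, was -0.59 ± 0.14 (SE) with an unadjusted p of 0.0073 and an adjusted p of 0.168, so it was not called. In that contrast none of the 9 members and none of all genes (0.0%) was called. At an unadjusted p under 0.05 the count lower in KO1 was 1 of 9 members, Jarid2, where 3.55% of all genes were. The Jarid2 value is a mean of 3 transcripts, and the KO2 replicates of Jarid2-214 and Jarid2-212 moved in opposite ways. Jarid2-214 had 3.23 and 2.38 in KO2, against 2.87 and 3.03 in control. Jarid2-212 had 6.99 and 7.61, against 7.00 and 7.08. Singly their SE was 0.31 and 0.25, above the 0.14 of the mean. Only Jarid2-204 had both KO2 libraries above both controls.

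Rnf2, which encodes RING1B, the ligase that deposits most H2A ubiquitin in embryonic stem cells, had the lowest adjusted p among the members in KO2 and in the average. It spans chr1:151458004-151500955 on the minus strand. Rnf2 had an outer-start index of 5.30 and 5.30 in KO1 and 4.95 and 5.01 in KO2, against 6.12 and 5.85 in control. The 3 groups did not overlap, with KO2 lowest and control highest. The change was -0.69 ± 0.16 in KO1 (SE, adjusted p = 0.0812, limma), -1.01 ± 0.16 in KO2 (adjusted p = 0.0300) and -0.85 ± 0.14 in the average (adjusted p = 0.0306). In KO2 this put the ratio 50.2% below control, and 15.6% of all genes had a lower change there. All 4 of its outer-start transcripts were called in KO2 and in the average. KO1 minus KO2 was 0.32 ± 0.16 (SE, adjusted p = 0.362, limma), so the knockouts were not shown to differ. When all transcripts of a gene were averaged, internal starts included, the KO2 change of Rnf2 was -0.47 and was not called.

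Ring1, the other PRC1 ligase, encodes RING1A and spans chr17:34020792-34024680 on the minus strand. For Ring1 the outer-start index was 0.94 and 1.82 in KO1 and 2.15 and 1.70 in KO2, against 2.06 and 1.68 in control. The groups overlapped. The change was -0.49 ± 0.36 in KO1 and 0.06 ± 0.36 in KO2 (SE, adjusted p = 0.417 and 0.923, limma), and the SE was over 2 times that of Rnf2. These values do not show that Ring1 and Rnf2 differ, since the difference between the 2 genes was not tested.

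Pcgf6, the RING finger partner of RNF2 in the variant complex PRC1.6, which silences germline genes in embryonic stem cells, spans chr19:47033617-47050906 on the minus strand. Its outer-start index was 4.49 and 4.51 in KO1 and 4.56 and 4.32 in KO2, against 5.09 and 5.24 in control. All 4 knockout libraries were below both controls and close to each other. The change was -0.67 ± 0.16 in KO1 (SE, adjusted p = 0.0832, limma), -0.73 ± 0.16 in KO2 (adjusted p = 0.0418) and -0.70 ± 0.14 in the average (adjusted p = 0.0376). It rests on 1 transcript, Pcgf6-201, and no internal-start transcript of Pcgf6 is analysed here. In the fit of single transcripts the same values had an adjusted p of 0.0554 in KO2 and 0.04975 in the average (limma). The KO2 call of Pcgf6 therefore held in the gene fit and not in the transcript fit.

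Bmi1, the RING finger partner of RNF2 and RING1 in canonical PRC1, also known as PCGF4, spans chr2:18677018-18686629 on the plus strand. Bmi1 had an outer-start index of 0.34 and 1.41 in KO1 and 0.57 and -0.10 in KO2, against 0.18 and 0.76 in control. The groups overlapped and replicates of each were far apart. The change was 0.40 ± 0.46 in KO1 and -0.24 ± 0.46 in KO2 (SE, adjusted p = 0.604 and 0.731, limma), and both signs turned when a single library was left out.

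Reads of another gene may enter some of these values, since 7 of the 10 members overlap another annotated gene. At Rnf2 the gene model Gm36527 lies on the same strand from 1370 to 4398 bases inside the gene, downstream of all 4 outer starts. Ring1, Pcgf6 and Bmi1 overlap none.

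**Figure D2:**
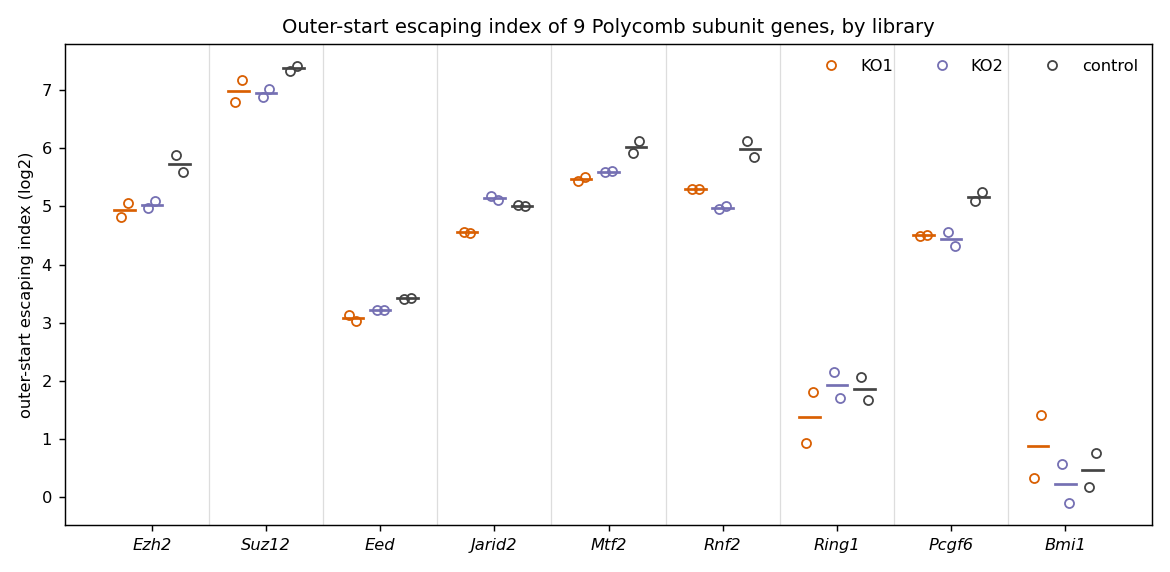
Outer-start escaping index (log2) of 9 Polycomb subunit genes in each library, with KO1, KO2 and control from left to right within a gene, circles for the 2 libraries of a group and bars for their mean. All knockout circles of Ezh2, Suz12, Eed, Mtf2, Rnf2 and Pcgf6 lie below both control circles, Jarid2 has KO1 below and KO2 above control, and Ring1 and Bmi1 overlap.

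The promoters of the 3 genes called in the average are shown because the index is read here as counted from the start of each transcript. All 10 members matched the RefSeq promoter table (GRCm38.p6). The stretches printed run 5' to 3' on the strand of the gene, from 200 bases before the RefSeq start to 30 after it. Capitals mark a motif on either strand: the GC box GGGCGG, the CCAAT box, or the E2F form TTTGGCGC.
Rnf2 (chr1:151500962-151501191, minus strand): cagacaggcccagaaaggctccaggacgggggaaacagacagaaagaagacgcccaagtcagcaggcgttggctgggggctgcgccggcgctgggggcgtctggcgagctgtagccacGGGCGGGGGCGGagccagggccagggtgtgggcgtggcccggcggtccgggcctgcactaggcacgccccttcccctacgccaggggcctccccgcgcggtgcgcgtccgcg
Ezh2 (chr6:47595001-47595230, minus strand): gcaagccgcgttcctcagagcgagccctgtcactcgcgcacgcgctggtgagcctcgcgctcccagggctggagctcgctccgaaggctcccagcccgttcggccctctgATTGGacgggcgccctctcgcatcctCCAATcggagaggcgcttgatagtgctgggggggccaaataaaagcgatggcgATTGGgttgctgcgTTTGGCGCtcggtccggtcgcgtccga
Pcgf6 (chr19:47050877-47051106, minus strand): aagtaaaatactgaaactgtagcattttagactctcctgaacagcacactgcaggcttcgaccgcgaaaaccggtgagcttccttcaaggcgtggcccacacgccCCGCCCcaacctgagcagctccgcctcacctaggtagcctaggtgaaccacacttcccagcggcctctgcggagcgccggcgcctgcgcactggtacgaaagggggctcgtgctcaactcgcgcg
The RefSeq start lies 36 bases upstream of the outermost GENCODE start for Rnf2 and 311 bases inside it for Ezh2, where Ezh2-201 begins.

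These 3 promoters share no motif of those searched. Rnf2 holds 2 GC boxes that abut, 82 and 76 bases before its start, and Pcgf6 holds 1, on the minus strand, 95 bases before. Ezh2 holds none and has 3 CCAAT boxes, at 90, 64 and 11 bases before its start, with the E2F form just inside the start. Over windows of 300 bases, GC content was 72.7% for Rnf2, 64.3% for Ezh2 and 57.7% for Pcgf6, where the median of all 32851 promoters was 52.7%. Across the 15 windows of the 10 members, 11 held a GC box, against 35.7% of all promoters, and 8 held a CCAAT box, against 37.4% of all. None held the ETS form CCGGAAG, which 8.86% of all promoters hold. Suz12 held the other E2F form searched, TTTCCCGC, found in 1.07% of all promoters, and Ezh2 the form TTTGGCGC, found in 0.514%. The windows of a gene with several starts overlap in part, so these counts describe letters and not sites.

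Transcripts were also taken singly and split by where they start. Of 32 distinct outer-start transcripts, 30 were below control in KO1 (75.2% of all such transcripts) and 29 in KO2 (83.2% of all). For 26 all 4 knockout libraries lay below both controls, which held for 42.3% of all outer-start transcripts. Transcripts of a gene are not independent units, and 12 of these 26 are of Mtf2. Counted by gene it was 6 of 9 members, where 39.5% of all genes were. In KO2 6 of 32 were called lower, where 13.5% of all outer-start transcripts were, and in the average 7 of 32, where 11.6% were. The 7 were the 4 of Rnf2, 2 of Ezh2 and Pcgf6-201. Without any 1 of the 6 libraries none of the 32 was called in any of these contrasts. None was called in KO1 (0.0% of all), where 19 of 32 were lower at an unadjusted p under 0.05, against 26.5% of all. Their median change was -0.56 in KO1, beside -0.32 over all 38690 outer-start transcripts, and -0.43 in KO2, beside -0.50 over all.

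Of the 60 internal-start transcripts, 34 were below control in KO1 (52.3% of all such transcripts) and 32 in KO2 (54.6% of all). None was called in any of the 3 contrasts against control (KO1, KO2, their average), where 0.0%, 3.83% and 3.43% of all internal-start transcripts were called lower. At an unadjusted p under 0.05, 7 of 60 were lower and 1 higher in KO2, where 13.3% and 5.23% of all internal-start transcripts were. For 12 of 60 all knockout libraries lay below both controls, and for 6 they lay above, where the shares over all internal-start transcripts were 16.3% and 10.0%. Their median change was -0.05 in KO1 and -0.07 in KO2, beside -0.03 and -0.06 over all internal starts. Transcripts of a gene overlap and share reads, so these counts are not of independent units.

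Within Ezh2, Eed, Jarid2, Suz12, Mtf2 and Kdm2b the average changes of internal starts lay on both sides of 0, and all 3 of Rnf2 lay above 0, from 0.11 to 0.78, none called. The 10 internal-start transcripts of Ezh2 had average changes from -0.43 to 0.36, the 6 of Eed from -0.22 to 0.32, and the 13 of Jarid2 from -0.50 to 0.50. Suz12 ran from -0.50 to 0.07 over 4, and 3 of these, which begin 2480 to 2685 bases inside the gene, were below both controls in all 4 knockout libraries. Of the 4 in Mtf2, 3 ran from -0.11 to 0.02, and Mtf2-204, which begins 26431 bases inside, had 2.80 and 2.96 in KO1 and 3.10 and 3.12 in KO2, against 3.48 and 3.55 in control. That is a change of -0.52 in the average (adjusted p = 0.0780, limma), as large as at the outer starts of Mtf2 and not called.

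**Figure D3:**
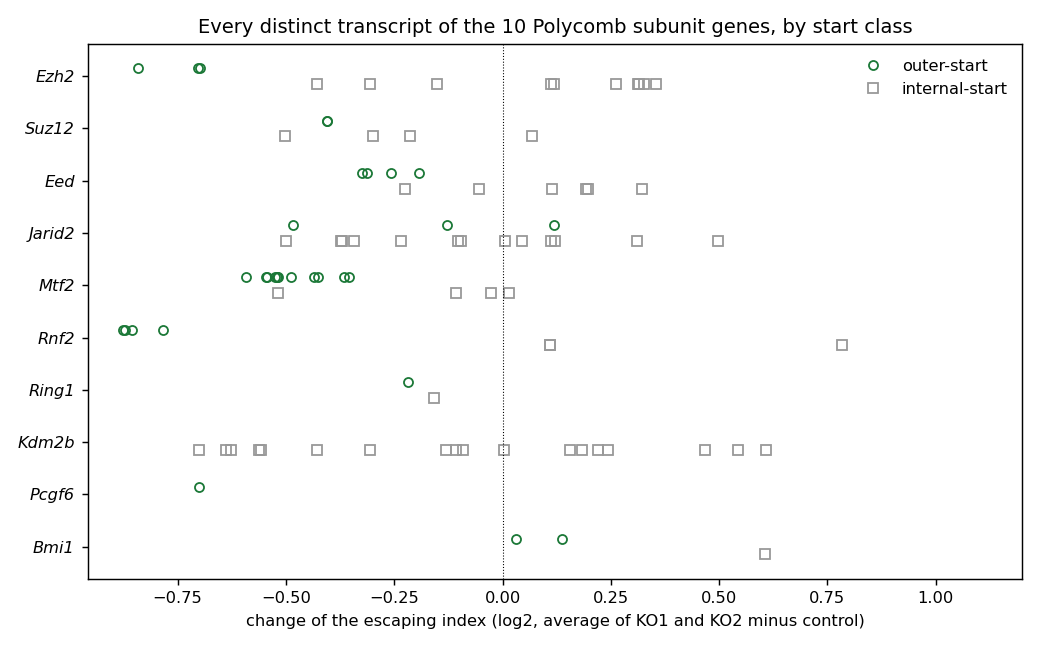
Change of the escaping index (log2, average of KO1 and KO2 minus control) for the 92 distinct transcripts of the 10 genes, 1 row a gene, with circles for outer-start and squares for internal-start transcripts. The 4 outer-start circles of Rnf2 lie between -0.87 and -0.78 while its 3 internal squares lie between 0.11 and 0.78, and the 18 squares of Kdm2b spread on both sides of 0.

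The gap between the start classes changed most, among the members, for Rnf2 and Ezh2, and neither change was called. The outer-start minus internal-start index of Rnf2 was 3.27 and 3.88 in KO1 and 3.30 and 3.61 in KO2, against 4.76 and 4.63 in control. No knockout library reached the controls, and the change of this gap was -1.18 ± 0.25 in the average (SE, adjusted p = 0.0662, limma). The internal-start mean of Rnf2 includes Rnf2-206, which changed by 0.78 in the average, while Rnf2-207 and Rnf2-202 changed by 0.11 each. Rnf2-206 had -0.76 and -1.74 in KO1 and -1.33 and -1.79 in KO2, against -2.26 and -2.12 in control. For Ezh2 the gap was 3.45 and 3.47 in KO1 and 3.68 and 3.68 in KO2, against 4.59 and 4.23 in control. Its change was -0.84 ± 0.20 (SE, adjusted p = 0.0732, limma). None of the 8 members with both classes, and none of the 7315 genes tested (0.0%), was called in KO1, KO2 or their average. At an unadjusted p under 0.05 in the average, 2 of 8 members, Rnf2 and Ezh2, and 27.9% of all genes had a lower difference. All 8 changes were below 0 in the average, from -1.18 for Rnf2 to -0.06 for Ring1, with a median of -0.34, beside -0.42 over all genes and 79.2% of them below 0.

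Kdm2b, whose CxxC zinc finger takes the variant complex PRC1.1 to CpG islands, had no outer-start value, because the nearest of its 18 measured transcripts, Kdm2b-204, begins 517 bases inside the outermost start. It spans chr5:122870665-122989823 on the minus strand. The index of Kdm2b-204 was 6.73 and 6.68 in KO1 and 6.17 and 6.98 in KO2, against 7.41 and 7.27 in control. All 4 knockout libraries were below both controls, and the change was -0.63 in KO1 and -0.77 in KO2 (adjusted p = 0.255 and 0.142, limma). Further in, 3 transcripts that begin 724 to 731 bases inside averaged 5.76 and 5.52 in KO1 and 5.42 and 5.93 in KO2, against 5.51 and 4.97 in control. Their changes ran from 0.07 to 0.58 in KO1 and from 0.38 to 0.51 in KO2, none called. Of the other Kdm2b transcripts, Kdm2b-208, singled out after its values were seen, had the smallest adjusted p of all internal-start members in the average (0.0592, limma), with a change of -0.63, and all 4 knockout libraries lay below both controls. Kdm2b-213 had a difference of similar size and opposite sign, 0.61 in the average (adjusted p = 0.0823, limma), with 0.74 and 0.85 in KO1 and 0.67 and 0.75 in KO2, against 0.28 and 0.013 in control. All 4 of its knockout libraries lay above both controls, and neither transcript was called. The start of Kdm2b is shared with the noncoding genes Gm44574, on the same strand, and A930024E05Rik, on the opposite strand.

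The 500-base limit on outer starts bears on the values of several members. With a limit of 100 bases Ezh2 had an average change of -0.84 and was not called (limma), while Rnf2 and Pcgf6 were, and the outer-start transcripts called were 1 in KO2 and 2 in the average. With a limit of 2000 bases the KO2 changes of Jarid2 and Ring1 were below 0, and Kdm2b had a gene value, with changes of -0.073 in KO1 and 0.0083 in KO2, neither called. Just inside the limit of 500 bases lay Eed-203, which begins at 428 bases and had an average change of -0.19. Just outside lay Kdm2b-204, at 517 bases with -0.70, and Eed-209, at 522 bases with -0.22.

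Jarid2 showed a split between neighbouring starts as well. Its 4 transcripts that begin 1300 to 1385 bases inside the outermost start averaged 6.98 and 6.99 in KO1 and 7.13 and 7.53 in KO2, against 7.15 and 7.31 in control. KO1 lay below both controls, and KO2 lay on both sides of them. The 4 that begin 1797 to 1896 bases inside averaged 6.19 and 6.23 in KO1 and 5.88 and 5.95 in KO2, against 6.46 and 6.46 in control. Here the groups did not overlap and KO2 was lowest. In KO2 the changes ran from -0.10 to 0.31 at the starts of 1300 to 1385 bases. At the starts of 1797 to 1896 bases they ran from -0.61 to -0.48, with adjusted p values of 0.0821 to 0.116, so none was called. The difference between the sets was not tested. Further in, Jarid2-206 at 2124 bases and Jarid2-205 at 2385 bases had changes of 0.30 and 0.60 in KO1 and of 0.32 and 0.39 in KO2, none called.

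**Figure D4:**
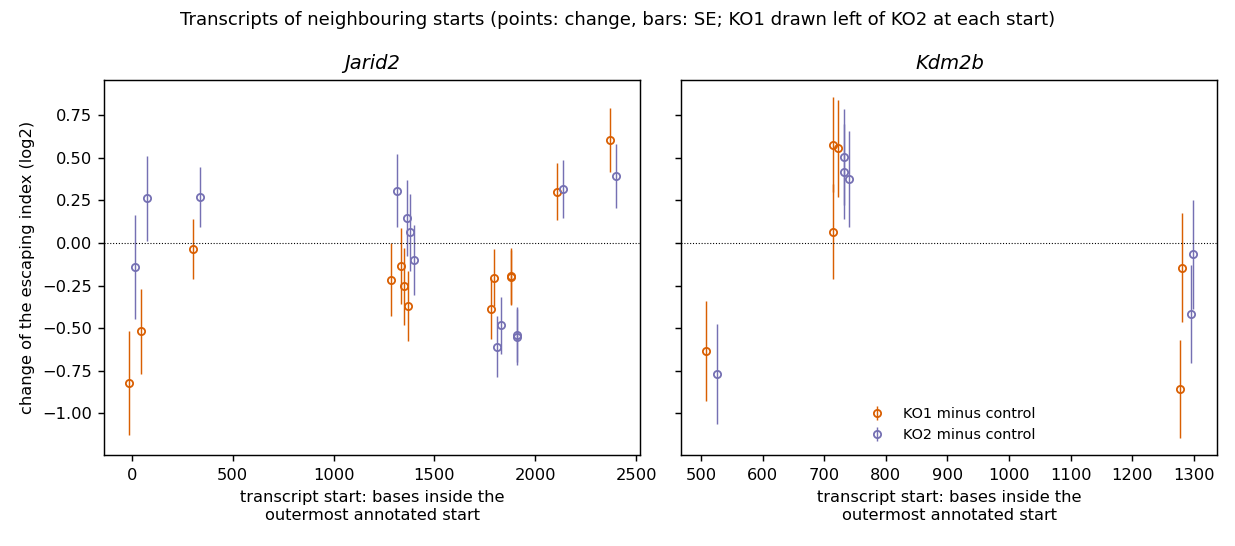
Change of the escaping index (log2, circles with SE bars) of single transcripts of Jarid2 and Kdm2b against the distance of their start from the outermost annotated start (bases), for KO1 and KO2 minus control, with KO1 drawn slightly left of KO2 at each start. In Jarid2 the KO2 changes lie between -0.10 and 0.31 at starts of 1300 to 1385 bases and between -0.61 and -0.48 at starts of 1797 to 1896 bases, and in Kdm2b they are -0.77 at 517 bases and 0.38 to 0.51 at 724 to 731 bases.

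RefSeq places a start at each of these Jarid2 positions, and both promoters are shown because their transcripts had different values in KO2. Both run from 200 bases before the start to 30 after it, on the plus strand of GRCm38.p6, and capitals mark a CCAAT box on either strand or the TATA box TATAAA.
Jarid2, start at 1300 bases (chr13:44730574-44730803): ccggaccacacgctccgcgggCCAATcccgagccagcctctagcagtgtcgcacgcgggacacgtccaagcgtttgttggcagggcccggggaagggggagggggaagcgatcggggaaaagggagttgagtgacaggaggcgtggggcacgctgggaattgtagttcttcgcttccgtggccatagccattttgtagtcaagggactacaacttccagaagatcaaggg
Jarid2, start at 1797 bases (chr13:44731071-44731300): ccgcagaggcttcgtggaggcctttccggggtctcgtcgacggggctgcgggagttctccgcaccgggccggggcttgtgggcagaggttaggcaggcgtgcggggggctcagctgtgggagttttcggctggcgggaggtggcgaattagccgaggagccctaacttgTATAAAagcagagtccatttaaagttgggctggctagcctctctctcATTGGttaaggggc
The promoter at 1797 bases holds a TATA box 31 bases before its start, the only one among the 15 member windows, and 13.6% of all promoters hold these letters. The promoter at 1300 bases has no TATA box in its window and has a CCAAT box 179 bases before its start. The promoter at 1797 bases also has a CCAAT box, on the minus strand just inside its start. Both windows hold a GC box outside the stretch printed, 231 bases before the 1300-base start and 207 before the 1797-base start. GC content over 300 bases was 64.3% at the 1300-base start and 62.7% at the 1797-base start.

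The other Polycomb genes, in lists chosen by function, moved in the same direction where they were called. Of 8 further PRC2 genes with a value, 2 were called lower in the average, where 14.3% of all genes were, and the same number in KO2, where 17.3% were, and none higher. Ezh1, the other H3K27 methyltransferase, had an outer-start index of 6.07 and 6.11 in KO1 and 5.87 and 5.51 in KO2, against 6.90 and 6.98 in control, a change of -1.05 ± 0.16 in the average (SE, adjusted p = 0.0295, limma). Phf1, a relative of Mtf2, changed by -0.73 ± 0.15 (SE, adjusted p = 0.0375, limma). The list's median was -0.44 in the average, beside -0.38 over all genes.

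A further 10 genes were listed here with canonical PRC1, and not all of them, Sfmbt1 among these, encode its subunits. Of the 10, none was called in the average and 1 was called lower in KO2, Sfmbt1, where 17.3% of all genes were. The average changes of smallest p were -1.07 ± 0.29 for the chromobox gene Cbx2 and -0.54 ± 0.15 for Sfmbt1 (SE, adjusted p = 0.0626 and 0.0666, limma), and the list's median was -0.54. Of 24 further genes of variant PRC1, 6 were called lower in the average, where 14.3% of all genes were, and none higher. The list's median was -0.31. In KO2 6 were called lower, where 17.3% of all genes were, and none higher. Those called in the average include Rybp, whose protein stimulates the ligase, at -0.97 ± 0.16, and Pcgf3, a relative of Pcgf6, at -1.12 ± 0.21 (SE, adjusted p = 0.0304 and 0.0337, limma). Of 11 genes of the complexes that remove these marks, 2 were called lower in the average, where 14.3% of all genes were. In KO2 1 was, Foxk1, where 17.3% of all genes were, and none was higher in either. The 2 were Mbd6 and Foxk1 of the H2A deubiquitinase complex, at -0.86 ± 0.15 and -0.77 ± 0.14 in the average (SE, adjusted p = 0.0312 and 0.0334, limma). Their list's median was -0.58. In KO1 none of the genes of these lists was called, and beside the shares over all genes these counts are read only as counts.

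**Figure D5:**
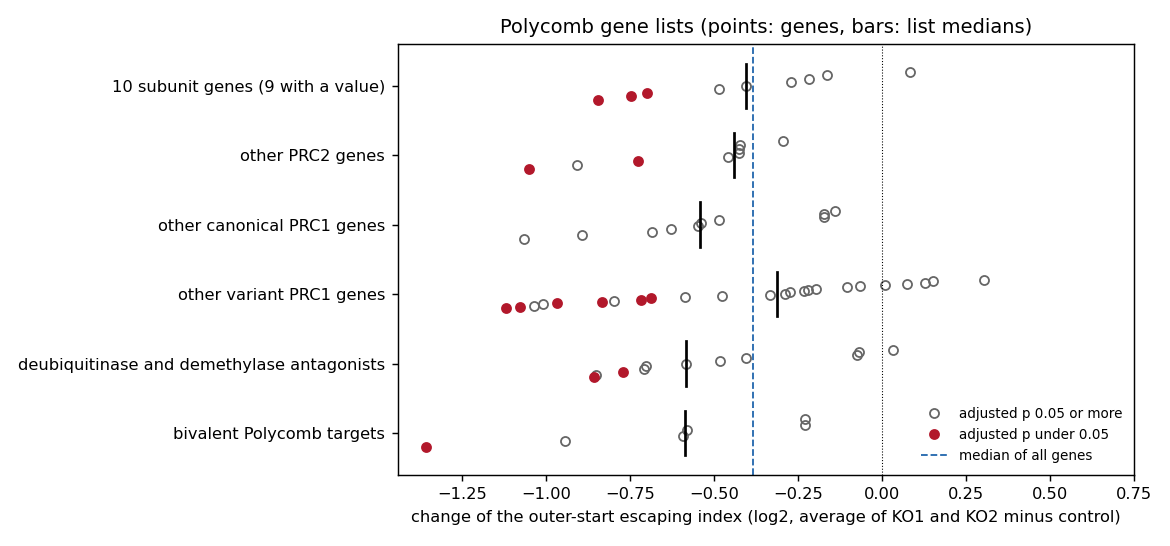
Change of the outer-start escaping index (log2, average of KO1 and KO2 minus control) for the genes of 6 lists, 1 row a list, with a filled circle for a gene with adjusted p under 0.05, an open circle for the others and a bar for the list's median; the dashed line is the median of all genes. All filled circles lie left of the dashed line, and the 6 list medians lie between -0.59 and -0.31, on both sides of -0.38.

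Across the 6 libraries the protein-coding genes whose outer-start index was most like that of Rnf2 were Phactr4, Aatf and Seh1l. Likeness was the Euclidean distance between the 6 log2 values, over 12074 genes outside the Polycomb lists, and it was 0.21 for Phactr4, 0.31 for Aatf and 0.31 for Seh1l. Phactr4 had 5.19 and 5.35 in KO1 and 4.92 and 5.10 in KO2, against 6.08 and 5.99 in control.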

How the data were processed

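Polymerase-bound RNA fragments of 35 to 100 bases were sequenced from 6 libraries, 2 a group, per the labels' protocols. The submitters' processing notes name CASAVA, Trimmomatic 0.38, HISAT2 2.1.0, featureCounts and the mm10 build. The authors deposited 1 table of log2 values, an escaping index, for 68473 transcripts with 0 missing values, and the sources used here give neither its windows nor its use of strand. From the values, each library is log2 of a ratio plus an offset of 0.5 times its smallest linear value. The values were tested as deposited, although the planned design assumed a linear scale.

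Identifiers were matched to GENCODE M21 (68397 matched, 76 not). The members' genes have 104 annotated transcripts, of which 10 are not analysed here. Outer-start indexes were averaged per gene. Group means were fitted to all 6 libraries together with limma 3.58.1 (R 4.3.3, variance trend, two-sided, 3 residual degrees of freedom) over 15956 genes, 66947 distinct transcripts and, for the outer minus internal difference, 7315 genes. The Benjamini-Hochberg adjustment ran over each whole fit, with calls at an adjusted p under 0.05. The script was tested on simulated data. Promoter sequences are from RefSeq. Python 3.11.15, pandas 2.3.3 and matplotlib 3.10.9 made the summaries and figures. All 10 members are named, and of each other list up to 4 genes called in the average, taken by p, or the 2 of smallest p where none was called. Members, lists and tests were chosen with earlier results of these data known. Alternatives covered the outer-start limit, the value per gene, scaling, pseudocounts, a low-value filter, gene biotype, the variance trend, grouping, a replicate block and leaving out each library.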

Additional observations from a re-analysis of the deposited data

How the results depend on the processing

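Without any 1 of the 6 libraries, no member was called in KO2 or in the average (0 to 0 in both contrasts). Over those fits the average change ran from -0.98 to -0.71 for Rnf2, from -0.89 to -0.60 for Ezh2 and from -0.78 to -0.62 for Pcgf6, so their direction held, with lowest adjusted p values of 0.0794, 0.0828 and 0.0871. The count of members called on the outer-start index was 0 in KO2 and 0 in the average with median centring, with quantile normalization and with the replicate number as a block. It was 0 in KO2 and 1 in the average when all transcripts of a gene were averaged, 0 in KO2 when KO2 and control were fitted alone, and 1 in the average when the 4 knockout libraries were 1 group. The replicate numbers share only a number: the correlation of same-numbered deviations was -0.007, -1.47e-05 and 0.015 for the 3 pairs of groups. For outer-start transcripts the counts were 0 in KO2 and 0 in the average under centring, quantile normalization, the replicate block and the loss of any 1 library (0 to 0), 0 in KO2 with KO2 and control alone, 0 in the average with the knockouts as 1 group, 3 in the average without a variance trend, and 1 in KO2 and 2 in the average with an outer-start limit of 100 bases. With that limit, 5 member transcripts then classed as internal were called in KO2 and 5 in the average. The counts in this paragraph stand without the shares over all genes or transcripts under the same settings. They describe how the calls depend on the processing and do not set the members against other genes. With a pseudocount of 4 on the ratio, the outer minus internal difference was called for 1 member in KO2 (Rnf2) and 2 in the average (Rnf2 and Ezh2). The share of all genes called with that pseudocount is not given here, so these calls are not read as particular to Rnf2 or Ezh2. With the outermost start taken among measured transcripts, an alternative chosen after seeing the data, the counts did not change, and Kdm2b had changes of 0.14 in KO1 and 0.13 in KO2.

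Centring subtracted each library's own median, taken over the outer-start indexes or over the outer minus internal differences. Changes below 0 and smaller in size than the shift so removed turned sign. Before centring, the median change of the outer-start index over all genes was -0.30 in KO1 and -0.48 in KO2. In KO2 the outer-start changes then were 0.23 for Bmi1, 0.046 for Mtf2, 0.27 for Eed and 0.044 for Suz12 (0.18, 0.083, 0.27 and 0.052 with quantile normalization). In the average they were 0.11 for Eed, 0.22 for Jarid2 and 0.17 for Ring1 (0.11, 0.26 and 0.12 with quantile normalization, which also gave 0.00097 for Suz12). The change of the outer minus internal difference was 0.10 for Mtf2, 0.064 for Eed, 0.26 for Suz12, 0.33 for Jarid2 and 0.37 for Ring1 (0.077, 0.051, 0.25, 0.31 and 0.35 with quantile normalization). In KO2, Jarid2 and Ring1 turned to -0.13 and -0.11 with an outer-start limit of 2000 bases and to -0.057 and -0.11 with all transcripts averaged. Leaving out 1 library gave ranges across 0 for Bmi1, at -0.13 to 0.94 in KO1, -0.57 to 0.10 in KO2, -0.21 to 0.38 in the average and -1.42 to 0.37 for the difference. The same held for Ring1, at -0.16 to 0.28 in KO2, -0.44 to 0.0015 in the average and -0.49 to 0.37 for the difference. The cause of these changes was not tested. The unknown depth and 2 libraries a group limit every value.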

Other observations

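Of 25 bivalent Polycomb targets, genes whose promoters carry PRC2 and PRC1 marks in embryonic stem cells, 8 are in the table and 6 have an outer-start value. Their median change was -0.59 in the average, beside -0.38 over all genes, and 1 of 6 was called lower, where 14.3% of all genes were. That gene, Hoxb13, a posterior homeobox gene, had an outer-start index of 0.48 and 0.0025 in KO1 and -0.44 and -0.71 in KO2, against 1.28 and 1.10 in control. Its change was -1.36 ± 0.22 in the average (SE, adjusted p = 0.0304, limma), and KO2 lay below KO1. The list was chosen with earlier results of these data known, and 6 genes of 25 say little of the list as a whole.

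Tfdp1, the dimer partner of E2F proteins and a gene of the variant PRC1 list, had an outer-start index of 7.69 and 7.16 in KO1 and 8.23 and 8.53 in KO2, against 9.02 and 8.94 in control. KO1 lay below KO2, and KO1 minus KO2 was -0.95 ± 0.26 (SE, adjusted p = 0.187, limma), so the knockouts were not shown to differ. Auts2, a gene of the same list, changed by -0.83 ± 0.18 in the average (SE, adjusted p = 0.0405, limma).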
